A study of Homo sapiens with 10 samples.

Results

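The isoleucine rows are the 30 rows of the tRNA tables whose name, once the species prefix is removed, begins with the isoleucine isotype. They were taken from tables of 631 rows each and comprise 19 rows with the anticodon AAT, 6 with GAT and 5 with TAT, written in DNA letters as in the tables. The tables belong to 10 iCLIP libraries, an assay that freezes contacts between RNA and a protein in living cells with UV light and then recovers the RNA bound to that protein. The protein was PUS7 with a FLAG tag. In H9 cells, which are human embryonic stem cells, 2 libraries came from PUS7 knockout cells that carried FLAG-PUS7 and 2 from PUS7 knockout cells without it. HEK 293T, a transformed human embryonic kidney line, had 3 libraries of each kind. All cells were thus PUS7 knockouts by genotype, and the libraries without FLAG-PUS7 are mock pull-downs on the same anti-FLAG beads. How FLAG-PUS7 was introduced, and whether a knockout line is 1 clone, is not given in the labels. The labels do not say either whether replicates were separate cultures, so that p-values cover the spread of these libraries and no more.

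PUS7 is a pseudouridine synthase, which isomerises uridine to pseudouridine in RNA without needing a guide RNA, and tRNAs are among its known substrates. Isoleucine codons are read by 3 kinds of tRNA. Those with the AAT anticodon are the major kind in human cells, and their first anticodon base is deaminated to inosine, which widens the codons they read. GAT tRNAs carry a guanosine there, and TAT tRNAs read the isoleucine codon AUA. The human TAT genes carry an intron next to the anticodon, which the tRNA splicing endonuclease removes from the precursor. In budding yeast the anticodon uridines of the intron-bearing isoleucine tRNA are modified by another synthase, Pus1, while the intron is still present.

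Of the 30 rows, 24 matched a RefSeq gene symbol of GRCh38.p14. These were 22 tRNA genes and the 2 pseudogenes TRI-AAT10-1 and TRI-AAT11-1. The other 6 rows are named by a chromosome and could not be matched, 3 of them AAT and 3 GAT. The 22 genes comprise 14 AAT, 3 GAT and 5 TAT copies, and 14 of them lie on chromosome 6. The AAT and GAT genes are 74 bases long, and the TAT genes, which include the intron, 93 or 94 bases. TRI-TAT1-1 lies on chromosome 19 at 39412168 to 39412260 and TRI-TAT2-1 on chromosome 2 at 42810536 to 42810628. The other TAT genes are on chromosome 6, TRI-TAT2-2 at 27020346 to 27020439, TRI-TAT2-3 at 27631421 to 27631514 and TRI-TAT3-1 at 28537590 to 28537683. All 3 GAT genes are on chromosome X, TRI-GAT1-1 at 3838377 to 3838450, TRI-GAT1-2 at 3876801 to 3876874 and TRI-GAT1-3 at 3915230 to 3915303.

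The values in the tRNA tables are level codes and not amounts, so a row could be called only detected (1 read or more) or not, and the sequencing depth behind it is unknown. FLAG-PUS7 libraries detected 458 to 479 of the 631 rows and the knockout libraries 0 to 232. The first H9 knockout table holds every row at its lowest level, which was used to read the other tables, so that its 0 rows follow from how the codes were read. Whether that library was empty or its table was left unfilled cannot be told, and results are given with and without it where it moves them. A row also has a width class, which is the text width of its values, numbered from 1 for the narrowest. Rows of wider classes were detected in more libraries. The class comes from the same values as detection, so that this is in part built in. Of the isoleucine rows, 18 were in class 3, 2 in class 2 and 10 in class 1.

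Most isoleucine rows were recovered with FLAG-PUS7, and fewer in the mock pull-downs. In H9, the FLAG-PUS7 libraries held 23 and 23 of the 30 rows, against 0 and 13 in the knockout. In 293T, they held 22, 21 and 23 rows, against 13, 3 and 8 in the knockout. The groups did not overlap in either line. Neither did the counts over all 631 rows, at 458 to 479 with FLAG-PUS7 and 0 to 232 in the knockout. Over all libraries, 21 isoleucine rows were in all 5 FLAG-PUS7 libraries, against 67.4% of all rows of the tables, 2 were in some of them and 7 in none. The 7 rows never detected were the 2 pseudogenes and 5 of the 6 rows without a matching gene symbol, so that all 22 tRNA genes were detected with FLAG-PUS7 in at least 3 libraries. Every isoleucine row found in a knockout library was also in all 5 FLAG-PUS7 libraries.

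**Figure D1:**
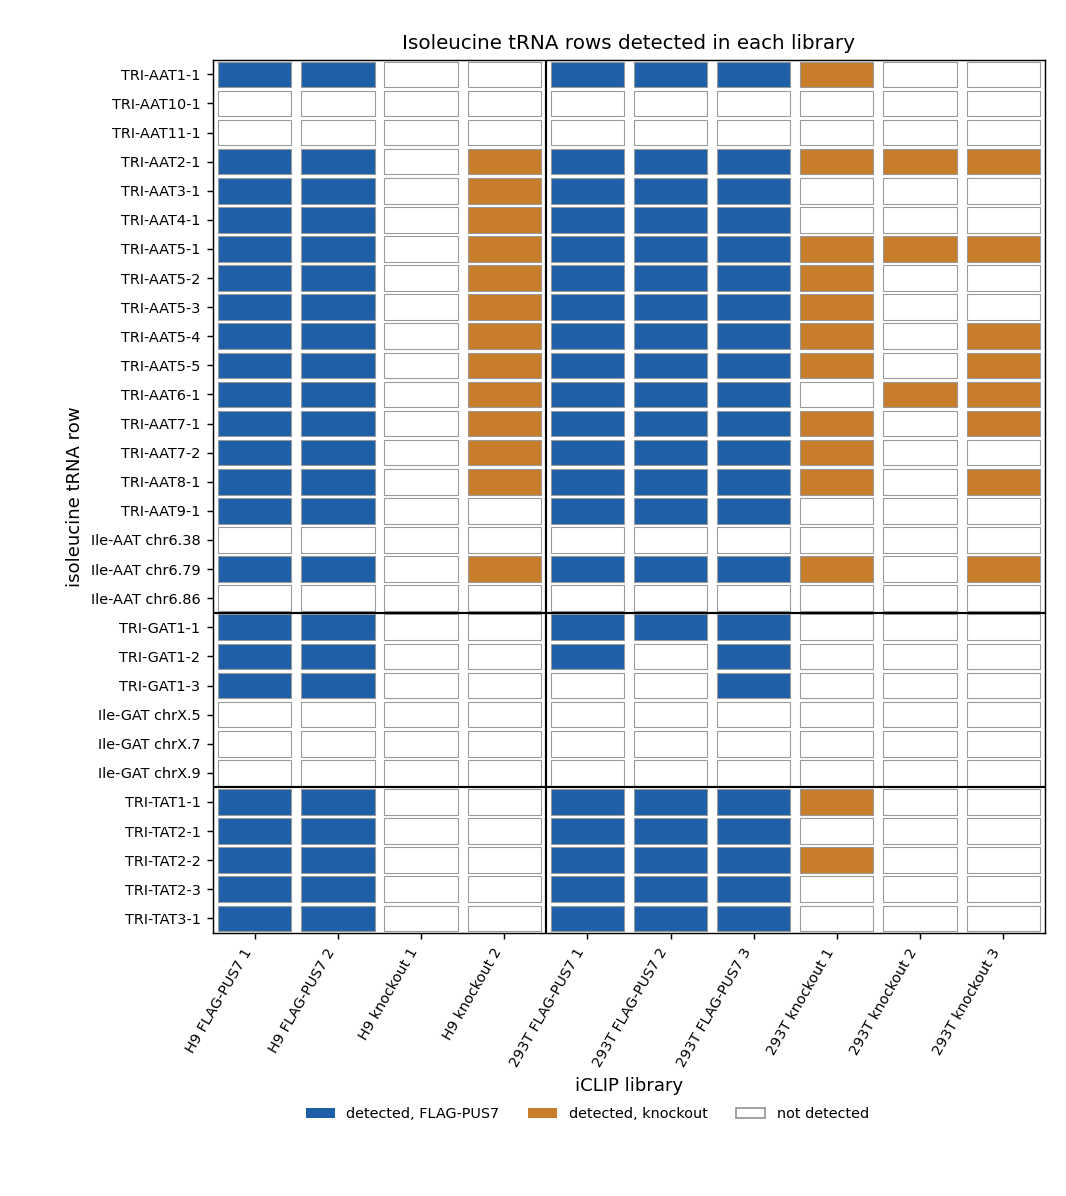
Detection of the 30 isoleucine rows (vertical axis) in the 10 libraries (horizontal axis), filled in blue for FLAG-PUS7 and in orange for knockout where at least 1 read was inferred, and white where none was. Thick lines separate H9 from 293T and the AAT, GAT and TAT rows; the 5 TAT rows are filled in every FLAG-PUS7 library, while 2 of them are filled in 1 knockout library.

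The intron-bearing TAT family was detected in full with FLAG-PUS7 and hardly at all without it. All 5 TAT rows were detected in each of the 2 H9 and the 3 293T FLAG-PUS7 libraries. In the knockout, 0 and 0 TAT rows were detected in H9, and 2, 0 and 0 in 293T, a mean of 13.3% ± 23.1 (SD, n = 3). The 2 rows found in the first 293T knockout library were TRI-TAT1-1 and TRI-TAT2-2. TRI-TAT2-1, TRI-TAT2-3 and TRI-TAT3-1 were in no knockout library. The difference, FLAG-PUS7 minus knockout, was 100 percentage points in H9 and 86.7 in 293T, or 93.3 points with both lines weighted equally (exact two-sided permutation test over libraries, adjusted p = 0.0221). It was the 6th largest of 57 tested anticodon families, level with Thr-AGT.

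Among AAT rows, a part of the family was also present in the mock pull-downs. The same 15 of the 19 AAT rows were detected in every FLAG-PUS7 library of both lines, 78.9% of the family. The knockout libraries held 0 and 13 AAT rows in H9, and 11, 3 and 8 in 293T (38.6% ± 21.3, SD, n = 3). Each FLAG-PUS7 library was thus above each knockout library of its line, as was the case over all rows of the tables. For AAT, however, the second H9 knockout library came within 2 rows. The difference was 44.7 points in H9 and 40.4 in 293T, or 42.5 points over both (adjusted p = 0.0221, exact permutation), the 39th largest of the 57. With the first H9 knockout library left out it was 25.4 points (adjusted p = 0.0232, exact permutation), and without either H9 FLAG-PUS7 library it stayed at 42.5 points but no longer passed (adjusted p = 0.170 and 0.181, exact permutation).

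The GAT family was seen with FLAG-PUS7 alone, though not in all of its copies. In H9, 3 and 3 of the 6 GAT rows were detected with FLAG-PUS7 and 0 and 0 in the knockout. In 293T, 2, 1 and 3 rows were detected with FLAG-PUS7 (33.3% ± 16.7, SD, n = 3), and 0 in each knockout library. TRI-GAT1-1 was in all 5 FLAG-PUS7 libraries. TRI-GAT1-2 was missing from the second 293T FLAG-PUS7 library, and TRI-GAT1-3 from the first and the second. The 3 GAT rows named by chromosome X were in no library. The difference was 50 points in H9 and 33.3 in 293T, or 41.7 points over both (adjusted p = 0.0221, exact permutation), and 83.3 points if only the 3 GAT genes of RefSeq were counted. In a stricter reading, the lowest level above no reads in each width class of each library was not counted as detection. The FLAG-PUS7 libraries then kept 3 and 3 rows in H9 and 2, 0 and 0 in 293T. The difference, now 30.6 points, missed the threshold (adjusted p = 0.194, exact permutation). Levels were taken to be in text order, so that the level left out need not be the smallest count.

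All 3 isoleucine families passed the test, but so did 45 of all 57 families, 78.9%, and 0 were lower with FLAG-PUS7. The call itself therefore does not set the isoleucine families apart. The median difference over the 57 families was 52.5 points, with a range of 4.69 to 100, so that TAT lay above the median and AAT and GAT below it. These positions count all rows, among them 4 AAT and 3 GAT rows that were never detected. Over RefSeq tRNA genes alone the difference was 54.8 points for AAT and 83.3 for GAT, and the median for that setting is not given here. The smallest p the test can give is 0.0167 (exact permutation test, 120 assignments), which 43 families reached, and within a single line the design cannot go below 0.333 in H9 and 0.1 in 293T.

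**Figure D2:**
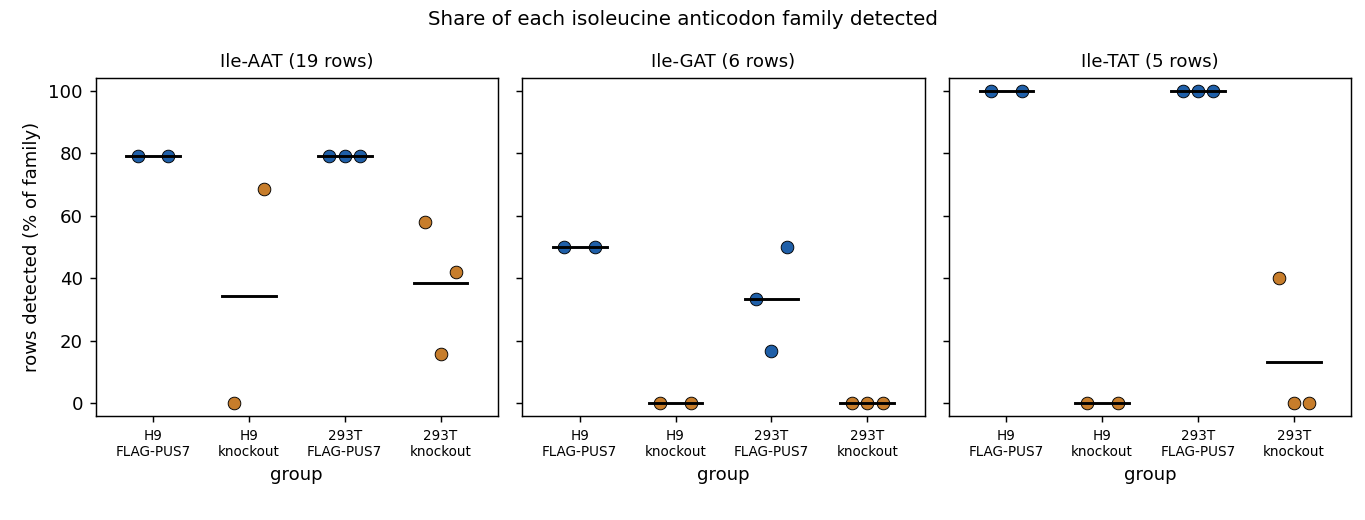
Percent of the rows of each isoleucine family detected (vertical axis) in each library, by group (horizontal axis), with points for libraries, blue for FLAG-PUS7 and orange for knockout, and bars for group means. TAT stands at 100% in all 5 FLAG-PUS7 libraries and AAT at 78.9%, while the highest knockout values are 40% for TAT, 68.4% for AAT and 0% for GAT.

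Whether the intron-bearing family differs from the other isoleucine anticodons was asked by subtracting, within each library, the percent of the other 25 isoleucine rows detected from that of the TAT rows. The other isoleucine rows were detected at 72% and 72% in the H9 FLAG-PUS7 libraries, against 0% and 52% in the H9 knockout. In 293T they were detected at 68%, 64% and 72% with FLAG-PUS7, against 44%, 12% and 32% in the knockout. TAT minus the others was 28 and 28 points in H9 with FLAG-PUS7, against 0 and -52 points in the knockout. It was 32, 36 and 28 points in 293T with FLAG-PUS7, against -4, -12 and -32 points in the knockout. TAT was thus above the other isoleucine rows in every FLAG-PUS7 library and above them in none of the knockout libraries. In both H9 FLAG-PUS7 libraries and the third of 293T, every other isoleucine tRNA gene was detected too. The 28 points there came only from the 7 rows never detected. In the first and second 293T FLAG-PUS7 libraries, GAT copies were missing as well. The FLAG-PUS7 minus knockout difference of this quantity was 51 points. Its p was the smallest possible, but it did not pass after adjustment over the 43 families with a partner of the same isotype (p = 0.0167, adjusted p = 0.102, exact permutation). Of those 43 families, 0 passed after adjustment (0%), while 8 were higher at an unadjusted p under 0.05 (18.6%) and 1 was lower (2.33%). Here 7 families reached the smallest p, where 15 would have been needed for any to pass at that value. Counted over RefSeq tRNA genes alone, which leaves out the 7 rows never detected and 1 further AAT row, the difference was 33.5 points (p = 0.05, adjusted p = 0.25, exact permutation).

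Against all other rows of the tables without a mitochondrial-type prefix, the TAT family was again the isoleucine family with the larger difference. With FLAG-PUS7 the TAT rows stood 20 and 20.5 points above the other rows in H9, against 0 and -39.7 points in the knockout. In 293T they stood 19.3, 20.9 and 23.1 points above with FLAG-PUS7, against 0.684, -23.6 and -22.6 points in the knockout. This gave TAT an excess of 38.2 points (p = 0.0167, adjusted p = 0.0528, exact permutation), the 7th largest of 57. AAT had an excess of -13.4 points (p = 0.167, adjusted p = 0.317, exact permutation) and GAT of -14.0 points (p = 0.267, adjusted p = 0.434, exact permutation). The GAT value had no stable direction, at -0.825 points with the other rows weighted by width class and 19.0 points over RefSeq tRNA genes alone. By this measure 0 of 57 families passed after adjustment (0%), and 11 were higher (19.3%) and 7 lower (12.3%) at an unadjusted p under 0.05. The smallest p was reached by 18 families, where 20 would have been needed for any to pass at that value. With 1 library left out at a time, the adjusted p of the TAT excess ranged between 0.0396 and 0.124 (exact permutation). It passed in 2 of the 10 cases, without the first H9 knockout library, at 48.1 points (adjusted p = 0.0396, exact permutation), and without the first 293T knockout library, at 42.1 points (adjusted p = 0.0452, exact permutation). Without the second H9 knockout library it was 28.2 points (adjusted p = 0.0594, exact permutation), and it was 25.1 points with the other rows weighted to the width classes of the TAT rows (adjusted p = 0.05, exact permutation). Over RefSeq tRNA genes alone the TAT excess was 29.2 points (adjusted p = 0.0907, exact permutation). Rows in no FLAG-PUS7 library lower the percent that TAT is set against. There were 118 of them among all 631 rows, prefixed rows included.

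The anticodons could be set side by side in width class 3, the class with detected rows of more than 1 isoleucine anticodon. All 15 detected AAT rows and the TAT rows TRI-TAT1-1, TRI-TAT2-1 and TRI-TAT2-3 belonged to class 3, as did 148 rows of other isotypes. All of these were detected in every FLAG-PUS7 library. Since the class is formed from the same values as detection, this full detection is not a result of its own. In the knockout, the 15 AAT rows of this class were detected at 0% and 86.7% in H9, where the rows of other isotypes stood at 0% and 66.2%. In 293T the AAT rows stood at 73.3%, 20% and 53.3%, and the rows of other isotypes at 73.6%, 38.5% and 33.8%. The 3 TAT rows of the class stood at 0% and 0% in H9 and at 33.3%, 0% and 0% in 293T. TRI-TAT2-2 and TRI-TAT3-1 were in class 2, and in the knockout they stood at 0% and 0% in H9 and at 50%, 0% and 0% in 293T, the 50% being TRI-TAT2-2 alone. The class 2 rows of other isotypes were detected at 0% and 33.6% in the H9 knockout and at 18.0%, 14.8% and 8.59% in the 293T knockout. The GAT rows were in class 1, where no knockout library detected more than 1.26% of the rows of other isotypes, and where 39.9% and 37.0% were detected with FLAG-PUS7 in H9 and 40.3%, 37.4% and 31.1% in 293T. The absence of GAT from the knockout libraries was thus shared with nearly all rows of its class. Narrow values are small ones, so that this absence is in part built into the class.

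Other families set beside TAT were those whose human genes also carry introns. Tyr-GTA, with 16 rows, differed by 66.7 points, Arg-TCT, with 6 rows, by 84.7 points, and Leu-CAA, with 8 rows, by 32.3 points, and 3 of 3 were higher with FLAG-PUS7 at an adjusted p under 0.05 (exact permutation test), against 78.9% of all families. Their excess over all other rows was 11.5 points for Tyr-GTA, 29.5 for Arg-TCT and -23.5 for Leu-CAA, and 0 of 3 passed. The intron-bearing families therefore did not share 1 position among the 57, and Leu-CAA stood below AAT and GAT. The AAT family was set beside the 7 other families whose anticodon begins with A and is read through inosine. These were Thr-AGT with a difference of 93.3 points, Pro-AGG with 88.3, Ala-AGC with 71.2, Arg-ACG with 61.9, Val-AAC with 60.6, Ser-AGA with 54.5 and Leu-AAG with 34.7. All 7 were higher with FLAG-PUS7 (exact permutation test), and their median difference was 61.9 points, against 52.5 over all 57 families. Ile-AAT, at 42.5 points, was below 6 of these 7, with all rows of each family counted.

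**Figure D3:**
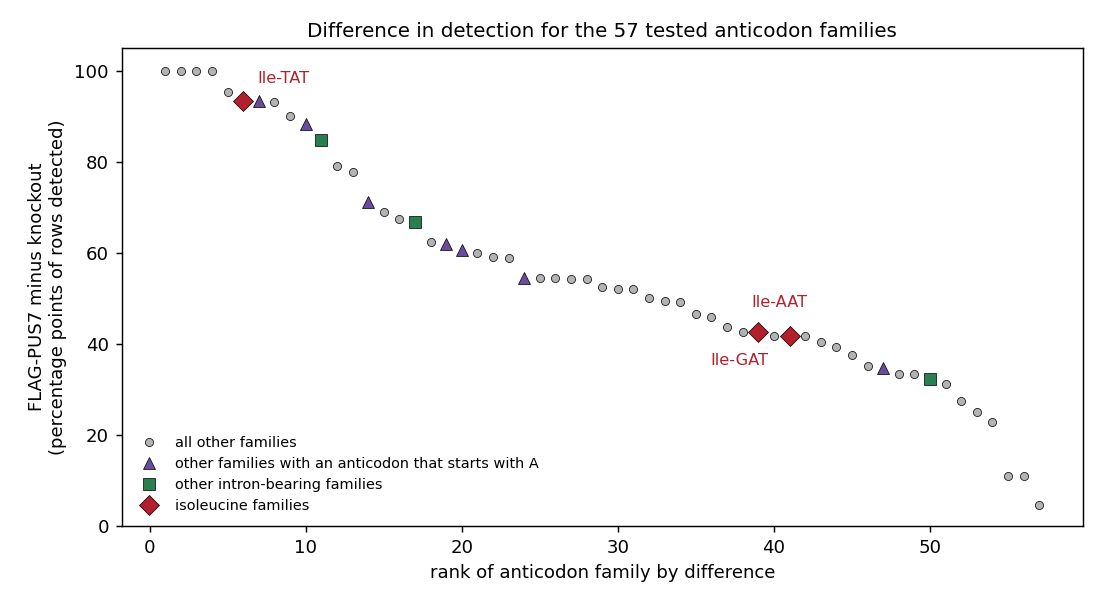
Difference in the percent of rows detected, FLAG-PUS7 minus knockout with both lines weighted equally (vertical axis, percentage points), for the 57 tested anticodon families in order of that difference (horizontal axis; tied families are set side by side). Red diamonds mark the isoleucine families, with TAT at 93.3 points, AAT at 42.5 and GAT at 41.7; green squares mark the 3 other intron-bearing families and purple triangles the 7 other families whose anticodon begins with A.

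Single gene copies of 1 family differed in how often they appeared in the mock pull-downs. TRI-AAT2-1 (chromosome 6, 27688188 to 27688261) and TRI-AAT5-1 (chromosome 6, 26554122 to 26554195) were in all 5 FLAG-PUS7 libraries and in all 4 knockout libraries that held any tRNA row. At the other end of the AAT family, TRI-AAT9-1 (chromosome 6, 27273960 to 27274033) was in each of the 5 FLAG-PUS7 libraries and absent from every knockout library. TRI-AAT1-1 was in 1 knockout library, the first of 293T. TRI-AAT3-1 and TRI-AAT4-1 were in 1 as well, the second of H9. TRI-AAT5-2, TRI-AAT5-3 and TRI-AAT7-2 were in 2 knockout libraries, the second of H9 and the first of 293T. TRI-AAT5-4, TRI-AAT5-5, TRI-AAT6-1, TRI-AAT7-1 and TRI-AAT8-1 were in 3 of them, as was an AAT row without a matching symbol.

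In all, 5 isoleucine rows were found in every FLAG-PUS7 library and never in the knockout, namely TRI-AAT9-1, TRI-GAT1-1, TRI-TAT2-1, TRI-TAT2-3 and TRI-TAT3-1. They made up 23.8% of the 21 isoleucine rows found in all FLAG-PUS7 libraries, against 30.1% of such rows over the whole table, so that the isoleucine rows as a group were near the background. The share was 3 of 5 for TAT, 1 of 15 for AAT and 1 of 1 for GAT. In tests of single rows, 0 of the 23 isoleucine rows detected anywhere passed after adjustment over 513 rows (exact permutation test, lowest adjusted p = 0.0668), as was true of all 513 (0%). At an unadjusted exact permutation p under 0.05 there were 5 of the 23 isoleucine rows, against 128 of the 513 (25%). These are the same rows as those found in every FLAG-PUS7 library and never in the knockout, so that this count adds no further result.

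Which copy of a set of genes with 1 mature sequence is detected is uncertain, since a read from that sequence can be assigned to several copies. The genes of a set can still differ, as TRI-TAT2-1 is 93 bases long and TRI-TAT2-2 and TRI-TAT2-3 are 94. In these tables, copies that share a sequence number did not always carry the same level code. The 5 copies of TRI-AAT5, the 2 of TRI-AAT7 and the 3 of TRI-TAT2 each had as many distinct values as copies in all 5 FLAG-PUS7 libraries. Codes also differ by width class, and TRI-TAT2-2 is in class 2 while the other TRI-TAT2 copies are in class 3. The 3 TRI-TAT2 copies thus had 2 distinct values in the second H9 knockout library, where 0 of them were detected. The 3 copies of TRI-GAT1 had a single value in the third 293T FLAG-PUS7 library and 3 distinct values in the second of H9. The labels do not describe how reads were divided among copies. With copies of 1 sequence number joined, the differences were 88.9 points for TAT, 39.3 for AAT and 25 for GAT, and each passed (adjusted p = 0.0226, exact permutation).

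Part of the detection in the mock pull-downs rested on the lowest level above no reads, which need not be the smallest count. Of the 13 AAT rows in the second H9 knockout library, 1 stood at that level, whereas in 293T it was 5 of 11, 2 of 3 and 6 of 8. Of the 2 TAT rows in the first 293T knockout library, 1 stood there, TRI-TAT2-2. Without that level the difference was 96.7 points for TAT and 55.3 for AAT (adjusted p = 0.0226 for both, exact permutation).

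The lines were compared by the difference in effect, H9 minus 293T. It was 13.3 points for TAT (exact permutation test, p = 1), 4.39 points for AAT (p = 0.9, exact permutation test) and 16.7 points for GAT (p = 0.4, exact permutation test). None of these passed (adjusted p = 1 for each, exact permutation), and neither did any of the 57 families (0%), with 0 at an unadjusted p under 0.05 in an exact permutation test whose smallest p is 0.01. For TAT and AAT the FLAG-PUS7 libraries of both lines held the same number of rows, so that these differences came from the knockout libraries alone. The AAT value turned to -29.8 points when the first H9 knockout library was left out and to -5.26 points when the first 293T knockout library was. It was 38.6 points without the second H9 knockout library and 15.8 points without the second 293T knockout library.

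Peak lists give a second view of the isoleucine genes, by position in the genome and for FLAG-PUS7 libraries only. The peaks fall on a grid of 200 bases, and each has a signal from the authors that is not scaled for depth, so that no test was made between libraries. The names of the lists say that tRNA was left out, and the step that removed tRNA reads is not described in the labels. In H9, 8 and 6 of the 22 isoleucine genes overlapped a peak by at least 1 base (36.4% and 27.3%), against 25.7% and 12.4% of all 443 RefSeq tRNA genes. In 293T it was 4, 3 and 0 of the 22 (18.2%, 13.6% and 0%), against 11.3%, 9.26% and 4.06% of all tRNA genes. The lists differ in length, with 1605 and 199 peaks in H9 and 120, 85 and 39 in 293T. Isoleucine genes carried 5.55% and 15.7% of the summed signal in H9, and 0.756%, 0.942% and 0% in 293T. Most of the H9 signal, 763 and 830 in sum, came from the copies TRI-AAT7-2, with 340 and 372, and TRI-AAT7-1, with 332 and 342. The share of signal at all tRNA genes was not computed.

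In any list, 9 isoleucine genes had a peak, 7 of them AAT, 2 TAT and 0 GAT. All 9 were detected in every FLAG-PUS7 tRNA table. Of the 9 genes, 6 had a peak in at least 2 lists, 5 had peaks in H9 lists alone, and 0 had one in all 5 lists. Only 6 of the 21 peaks held the whole gene, and with that requirement 2 genes had a peak in at least 2 lists. The same count was 3 without the first H9 list. A second number deposited with each peak, whose origin is not stated, was 0 for 19 of the 21 peaks and at most 2.

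Among TAT genes, TRI-TAT2-3 lay whole within a peak on the plus strand (chromosome 6, 27631401 to 27631600), with a signal of 13 and 13 in H9 and of 9 and 27 in the first and second 293T lists. TRI-TAT2-1 shared 28 bases with a plus-strand peak (chromosome 2, 42810601 to 42810800), with a signal of 6 in the first H9 list and of 17 in the first 293T list. Both genes were absent from every knockout tRNA table. No peak overlapped TRI-TAT1-1, TRI-TAT2-2 or TRI-TAT3-1.

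Among AAT genes, TRI-AAT7-2 and TRI-AAT7-1 had the highest signals, both in H9, while the 293T peaks at AAT genes, at 10 to 23, lay within the 9 to 27 of those at TAT genes. TRI-AAT7-2 (chromosome 6, 26780622 to 26780695), which lay whole within its peak, had signals of 340 and 372 in H9, the third and the second highest of those lists, and no peak in 293T. TRI-AAT7-1 (chromosome 6, 26720992 to 26721065) had 332 and 342 in H9 and 10 and 23 in the first and second 293T lists. Only 9 of its bases lay in that peak. The peak was on the minus strand, and the strands of the genes are not given here. Both genes were detected in every FLAG-PUS7 tRNA table of either line, and the tRNA tables cannot show whether their amounts differed. TRI-AAT8-1 (chromosome 6, 27668583 to 27668656), with 56 bases in its peak, had 17 and 8 in H9 and 21 and 18 in the first and second 293T lists. TRI-AAT2-1, with 61 bases in its peak, had 49 and 25 in H9 and no peak in 293T. TRI-AAT5-3 had 70 in the second list of H9, and TRI-AAT4-1 and TRI-AAT5-5 had 3 each in the first.

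A further peak began 6 bases past the higher coordinate of TRI-AAT5-1 (chromosome 6, 26554201 to 26554400, plus strand) and was in all 5 lists, with signals of 10 and 9 in H9 and of 27, 40 and 22 in 293T. It overlapped no RefSeq tRNA gene. With bins of 200 bases, whether its reads lay within the gene's transcript or beyond it was not resolved.

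**Figure D4:**
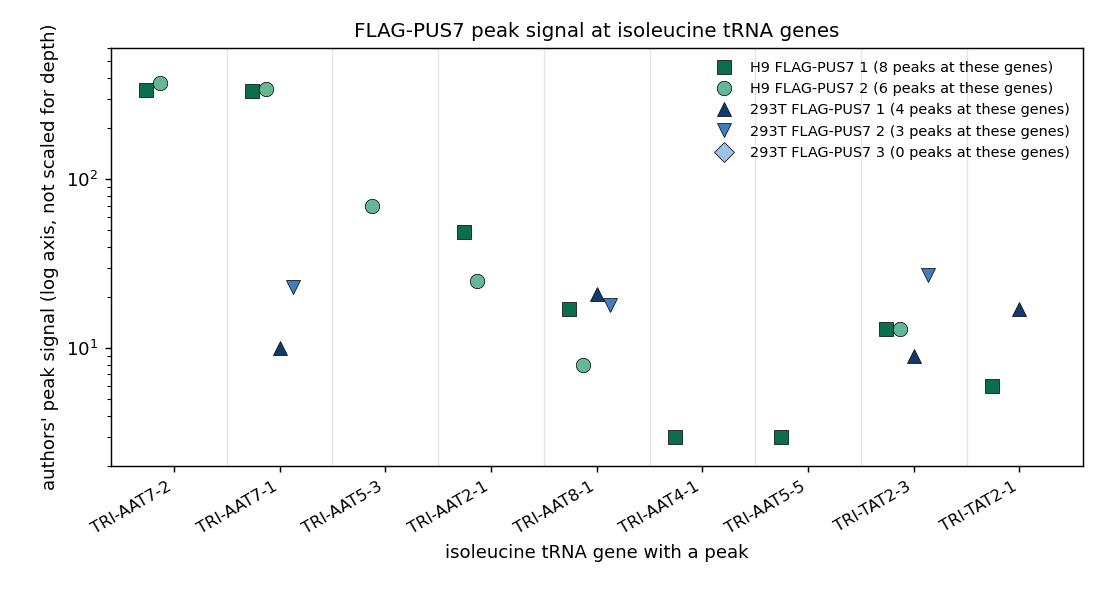
Signal of the authors' FLAG-PUS7 peaks that overlap an isoleucine tRNA gene (vertical axis, log scale, not scaled for depth), for the 9 genes with such a peak (horizontal axis); squares and circles are the H9 lists, triangles the first and second 293T lists, and the third 293T list has 0 such peaks. TRI-AAT7-2 and TRI-AAT7-1 stand at 332 to 372 in H9, while none of these peaks is above 27 in 293T.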

How the data were processed

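Each of the 10 libraries had a deposited table of 631 tRNA rows, whose values the authors left as level codes, a score that is neither a count nor a normalized unit. Levels were decoded with the first H9 knockout table as the key to text widths, the lowest run of levels being read as no reads. Bowtie, SAMtools, bedtools and hg38 are named per the submitters' processing notes, with no role or version, and the peak caller is not named there or in the labels. For the 5 FLAG-PUS7 libraries the authors deposited peak lists with a signal per peak, a p-value of an unstated test and the natural log of a second count plus 1. Per the labels' protocols, cells received 200 mJ/cm2 of UV light at 254 nm, lysates were treated with RNase I, pull-down lasted 2 h at 4 °C, and a MiSeq read 50 cycles.

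Rows were grouped into 76 anticodon families, of which 57 had a detected row. The percent of rows detected was compared by exact two-sided permutation of the FLAG-PUS7 label within lines (120 assignments), and lines by permuting the line label within genotype (100 assignments), with Benjamini-Hochberg adjustment over all families or rows tested. The decoding and the test were tested on simulated data. These were written in the format that the decoding assumes, with the first H9 knockout library empty. They cannot show whether the deposited codes follow that format. Named rows are every TAT and GAT row, isoleucine genes with peaks in at least 2 lists, and rows that vary among FLAG-PUS7 libraries; the other AAT rows are named by their pattern. Members, lists and tests were chosen with earlier results of these data known. Alternatives left out each library, used replicate blocks, other row sets, other weights and a stricter detection level. The stricter level was set by width class and library and is not a common read count. A tRNA gene was matched to RefSeq of GRCh38.p14 by symbol, and peaks by an overlap of at least 1 base. Python 3.11.15, numpy 2.4.6, pandas 2.3.3 and matplotlib 3.10.9 were used.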

Additional observations from a re-analysis of the deposited data

How the results depend on the processing

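Leaving out 1 library at a time, the FLAG-PUS7 minus knockout difference ranged between 90 and 100 points for TAT, 25.4 and 59.6 for AAT and 37.5 and 45.8 for GAT. The excess over all other rows ranged between 28.2 and 48.1 points for TAT, -20.9 and -5.86 for AAT and -23.9 and -4.04 for GAT. TAT minus the other isoleucine rows ranged between 38 and 64 points, with an adjusted exact permutation p between 0.0796 and 0.239. The H9 minus 293T difference ranged between 0 and 20 points for TAT, -29.8 and 38.6 for AAT and 8.33 and 25 for GAT. The count of families called ranged between 23 and 49, being 23 without either H9 FLAG-PUS7 library, and that of isoleucine genes with a peak in at least 2 lists between 3 and 6, being 3 without the first H9 list. Requiring a peak to hold the whole gene left 2 such genes. Whether the replicate numbers of the labels pair the libraries is not known. Correlations of same-numbered deviations lay between -0.0245 and 0.0369, but with 2 or 3 libraries per group they cannot decide it. With the replicate block the differences stayed at 93.3 points for TAT, 42.5 for AAT and 41.7 for GAT, but the smallest possible p is then 0.0625 (exact permutation test over 32 sign changes), so that 0 of the families could pass. Above the second lowest level, the GAT difference of 30.6 points missed the threshold (adjusted p = 0.194, exact permutation), while the TAT excess of 38.8 points passed (adjusted p = 0.0475, exact permutation); that setting for the excess was chosen after seeing the data, as were joined copies and, for TAT against the other isoleucine rows, width-class weights. Over RefSeq tRNA genes alone the GAT excess turned to 19.0 points (adjusted p = 0.464, exact permutation). With the copies of 1 sequence number joined, the TAT excess was 35.2 points (adjusted p = 0.152, exact permutation), and with width-class weights TAT minus the other isoleucine rows was 40.6 points (adjusted p = 0.119, exact permutation). The cause of these shifts was not tested. Depth is unknown. Detection with FLAG-PUS7 was complete for TAT, so that a larger difference could come only from fewer TAT rows in the knockout libraries. Families of few rows move in large steps.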
